A study of Mus musculus with 12 samples.

Results

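Microglia and macrophage genes were read in newborn mouse forebrain as 10 genes chosen by name: the receptor genes Csf1r, Cx3cr1 and P2ry12, the integrin gene Itgam, the surface marker genes Tmem119 and Fcrls, the complement genes C1qa, C1qb and C1qc, and the scavenger receptor gene Mrc1. They are 10 of the 19938 genes that the array table names singly, each with 1 probe set of its own. Itgam also shares 3 probe sets with the ribosomal gene Rpl35, which were not used. The arrays come from pups at postnatal day 0, with 3 biological replicates for each of 4 genotypes. GBS pups carried hGFAP-cre::Ctnnb1(ex3)Fl/+SmoM2Fl/+, and their arrays hold tumor tissue. GS pups carried hGFAP-cre::SmoM2Fl/+, and GB pups hGFAP-cre::Ctnnb1(ex3)Fl/+. Control pups carried Ctnnb1(ex3)Fl/+SmoM2Fl/+, which are both floxed alleles without Cre, so any effect of Cre itself cannot be told apart from the alleles in comparisons with Control. SmoM2 is an active form of Smoothened, which switches on the hedgehog pathway. Removal of Ctnnb1 exon 3 yields a stable beta-catenin and so active WNT signalling.

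Microglia are the resident macrophages of the brain. They arise from yolk sac progenitors and enter the embryonic brain early, outside the neural lineage in which the human GFAP promoter of this Cre is active, chiefly radial glia and the cells they form. Their survival depends on CSF1R, and they clear dying cells and prune synapses with the help of complement. Macrophages of the meninges and perivascular spaces are separate populations, which carry the mannose receptor MRC1. In tissue RNA, fewer cells of a type and less RNA per cell cannot be told apart.

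Across the 12 arrays the table's medians ran from 6.52 to 6.69 on the log2 scale. Ptch1, a hedgehog target, lay between 9.38 and 9.74 in GBS and 8.46 and 8.62 in GS, against 6.96 to 7.28 in GB and 7.08 to 7.17 in Control. Axin2, a WNT target, lay between 8.66 and 9.04 in GBS and 7.58 and 7.95 in GB, against 7.01 to 7.16 in GS and 6.99 to 7.18 in Control, so both read-outs followed the labelled alleles. GB replicate 2, GS replicate 3 and Control replicate 3 stood apart from their groups in a shared direction, with correlations of their deviations across genes of 0.714 to 0.823. The X-inactivation transcript Xist read 10.83 and 10.28 in GS replicates 2 and 3 and 8.66 and 10.53 in GB replicates 2 and 3, while the remaining arrays had 5.02 or less. High Xist was thus seen only in GS and GB arrays, so sex was unevenly spread over the genotypes. Sex was not in the fit, and its part in the contrasts was not tested. Olfactory and vomeronasal receptor genes, 1190 of them, served as a reading of dim probe sets, since brain tissue makes little of their RNA. Their median lay between 4.84 and 4.92 in GBS, 4.88 and 5.23 in GS, 5.02 and 5.35 in GB, and 5.12 and 5.23 in Control.

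The 10 genes were dim to moderate in newborn forebrain. Cx3cr1, the receptor for the neuronal chemokine fractalkine, was the brightest, with a mean of 7.65 over all arrays, above 99.2% of the receptor genes. C1qc, C1qa, Tmem119, C1qb and Csf1r averaged 6.79, 6.71, 6.67, 6.45 and 6.43, each above at least 88.7% of them. Mrc1 averaged 6.13, above 82.7%. Fcrls, P2ry12 and Itgam averaged 5.79, 5.76 and 5.45, above only 74.5%, 74.0% and 64.1% of the receptor genes. For these last 3 genes, which mark microglia strongly in adult brain, the probe sets read close to what genes silent in brain give on these arrays. Levels of different probe sets are not on a common scale, so this order describes signal above background and not RNA amounts.

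The genotypes ranked alike for most of the genes. The mean was lowest in GBS for 9 of the 10 genes, all but P2ry12, and highest in GB for 8 of the 10, all but P2ry12 and Cx3cr1. Lower GBS means were also the rule among receptor genes. Of these, 97.2% had a lower mean in GBS than in Control, 97.1% than in GB and 89.6% than in GS. For all genes the shares were 67.0%, 67.9% and 63.0%. The share of genes with GBS lowest of all 4 was not counted. The lowest place held up when any 1 array was left out, with GBS lowest for 7 to 9 genes, and so it did without the 3 arrays that stood apart (7 genes). The highest place rested on GB replicate 2: without it GB was highest for only 3 genes (C1qc, Fcrls and Mrc1), and Control for 5. These left-out orders were added after seeing the data. Among GS, GB and Control the arrays mostly overlapped. GB and Control overlapped for all genes but Mrc1, and GS and GB for all but Fcrls. GS and Control overlapped for all but Csf1r, C1qa and Fcrls. GB replicate 2 held the highest value of all 12 arrays for 7 of the 10 genes, and GBS replicate 2 the lowest for 6. The same GB replicate 2 had the highest receptor-gene median, 5.35, and GBS replicate 2 the lowest, 4.84.

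**Figure D1:**
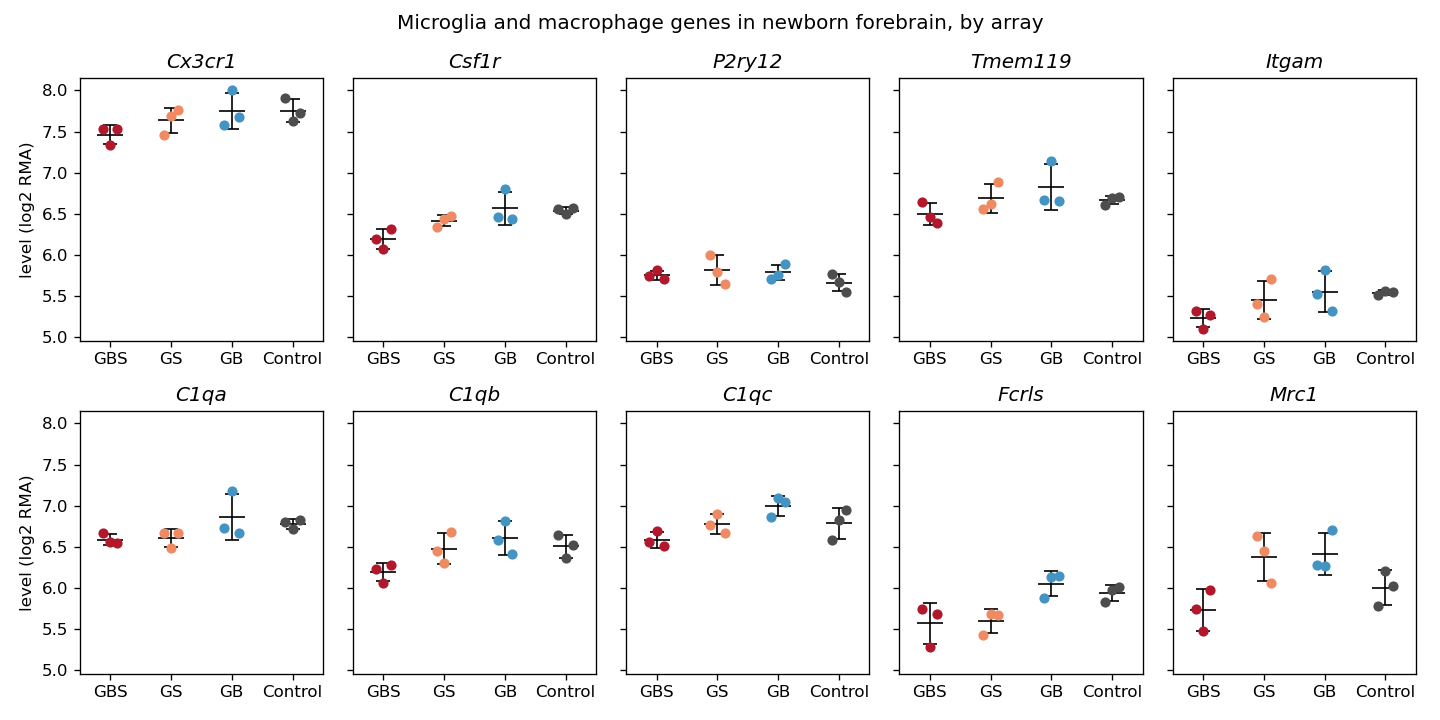
Level (log2 RMA) of each of the 10 genes on each array, by genotype. Points are arrays, the horizontal mark is the group mean and the bars are the SD of 3 arrays. The GBS points lie lowest for most genes, and Mrc1 is higher in GS and GB than in GBS.

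The comparison of GBS with Control asks how these genes differ in tumor tissue from forebrain without recombination. Of the 10 genes, 9 had a lower mean in GBS, as did 67.0% of all genes and 97.2% of the receptor genes. Of the 10, 0 were called higher and 0 lower by limma (two-sided, with Benjamini-Hochberg adjustment across the 19938 genes and a threshold of 0.05). Of all genes, 8.04% were called higher and 3.59% lower. Before adjustment, 5 of the 10 were lower at 0.05 (Csf1r, Fcrls, C1qb, Itgam and Cx3cr1), where 20.6% of all genes and 473 of the 1190 receptor genes were. The arrays of GBS lay wholly below those of Control for 6 of the 10. This held for 40.5% of all genes and 827 of the 1190 receptor genes. The median log2 change of the 10 genes was -0.28, beside -0.14 for all genes and -0.27 for the receptor genes. With each array's receptor-gene median as a covariate, the members' median change was -0.05 and 7 of 10 were lower. That median was 4.84 to 4.92 in GBS and 5.12 to 5.23 in Control, so covariate and genotype cannot be told apart here. In GBS against GB the same covariate left a median change of -0.16, with all 10 genes lower. The receptor-gene median was 5.02 to 5.35 in GB, above every GBS array. Covariate and genotype thus cannot be told apart in that comparison either.

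Csf1r encodes the receptor for CSF1 and IL-34, on which microglia depend. Its levels were 6.19, 6.08 and 6.31 in GBS, against 6.56, 6.49 and 6.57 in Control. Every GBS array lay below every Control array. The log2 change was -0.35 ± 0.11 (SE; n = 3 each) with a limma adjusted p of 0.0604. Its ligand genes, named after their values were seen, had log2 changes of -0.27 for Csf1 (adjusted p = 0.0958) and -0.39 for Il34 (adjusted p = 0.0540). Csf1r thus read lower in GBS without passing the test, and so did both ligands.

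Cx3cr1 measured 7.53, 7.34 and 7.53 in GBS, against 7.91, 7.63 and 7.73 in Control, again with no overlap. Its log2 change was -0.29 ± 0.13 (SE; limma adjusted p = 0.135). Its ligand gene Cx3cl1, made by neurons and also named after its values were seen, had a log2 difference of -0.27 (adjusted p = 0.119). Itgam, the alpha chain of complement receptor 3, measured 5.32, 5.11 and 5.27 in GBS, against 5.52, 5.57 and 5.55 in Control. Its groups did not overlap, and its change was -0.31 ± 0.14 (SE; adjusted p = 0.133), at a level near the receptor genes.

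P2ry12, the purinergic receptor that steers microglial processes towards ATP, was the exception to the order. It measured 5.75, 5.81 and 5.71 in GBS, against 5.77, 5.67 and 5.56 in Control, and the groups overlapped. The log2 change was 0.09, with a 95% interval of -0.14 to 0.32 (adjusted p = 0.502). The interval describes the signal of a probe set near the receptor-gene level, and so does not bound the change in RNA. Tmem119, a membrane protein gene that separates microglia from blood-derived macrophages in adult mice, had a log2 difference of -0.17, with an interval of -0.48 to 0.14 (adjusted p = 0.343). Its 3 GBS arrays, 6.39 to 6.64, overlapped the 3 Control arrays, 6.61 to 6.71.

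C1qa, C1qb and C1qc encode the 3 chains of C1q, the recognition unit of the classical complement pathway, which tags synapses and debris for uptake. C1qb measured 6.23, 6.07 and 6.28 in GBS, against 6.64, 6.36 and 6.52 in Control, without overlap (log2 -0.31 ± 0.13, SE; limma adjusted p = 0.121). C1qa ran from 6.54 to 6.67 in the GBS arrays and from 6.71 to 6.83 in those of Control, a change of -0.19 (adjusted p = 0.251). C1qc ran from 6.51 to 6.70 in the GBS arrays, overlapping the range of 6.58 to 6.95 in Control, a change of -0.20 (adjusted p = 0.210). All 3 chains thus had lower means in GBS, as did 67.0% of all genes and 97.2% of the receptor genes. Of the 3, 0 passed the test, where 3.59% of all genes were called lower. At an unadjusted p under 0.05, 1 of 3 was lower, where 20.6% of all genes were.

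Fcrls, an Fc receptor-like gene typical of mouse microglia, measured 5.75, 5.29 and 5.68 in GBS, against 5.83, 5.98 and 6.01 in Control. The groups did not overlap, and the log2 change was -0.37 ± 0.13 (SE; adjusted p = 0.0902). Mrc1 measured 5.75, 5.48 and 5.98 in GBS, against 5.78, 6.21 and 6.02 in Control, with overlap and a change of -0.27 ± 0.19 (SE; adjusted p = 0.276).

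These counts depended on which arrays entered the fit. Without GB replicate 2, which enters this comparison only through the shared spread, 5 of the 10 genes were called lower, beside 20.7% of all genes. Without the 3 arrays that stood apart, 3 were called lower (Csf1r, Itgam and C1qb), beside 19.6% of all genes; this also takes 1 array out of the Control means.

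**Figure D2:**
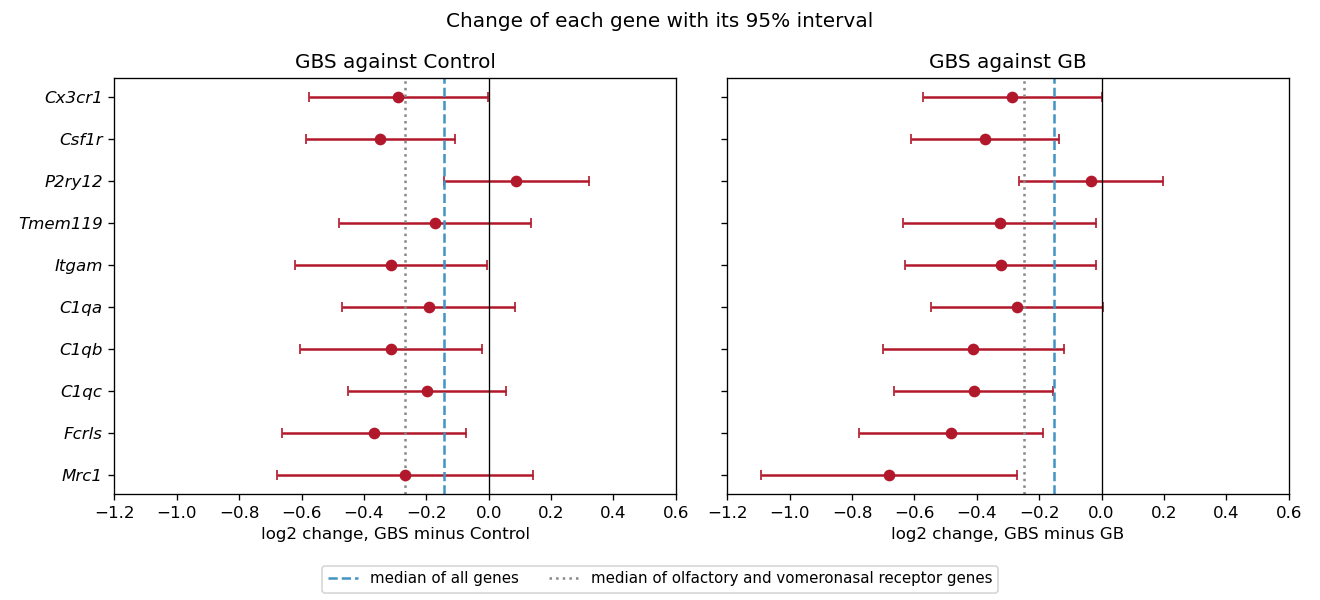
Log2 change of each gene in GBS against Control (left) and GBS against GB (right). Points are the limma estimates with their 95% intervals, and the dashed and dotted lines are the medians of all genes and of the olfactory and vomeronasal receptor genes. Against Control most points lie about the receptor-gene median of -0.27, and against GB the Mrc1 point at -0.68 lies farthest from 0.

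GBS against GB asks what SmoM2 adds to stabilised beta-catenin. All 10 genes had a lower mean in GBS, with a median log2 change of -0.35, beside -0.15 for all genes and -0.25 for the receptor genes. A lower mean was also found for 67.9% of all genes and 97.1% of the receptor genes. Limma called 2 of the 10 lower, Mrc1 and Fcrls, and 0 higher, where 2.35% of all genes were called lower and 6.48% higher. The arrays of GBS lay wholly below those of GB for 9 of the 10 genes, all but P2ry12. This held for 27.7% of all genes and 559 of the 1190 receptor genes. At an unadjusted p under 0.05, 7 of the 10 were lower, where 22.7% of all genes and 399 of the 1190 receptor genes were.

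Mrc1, the mannose receptor of perivascular and meningeal macrophages, measured 5.75, 5.48 and 5.98 in GBS, against 6.28, 6.26 and 6.71 in GB. It fell by 0.68 ± 0.19 on the log2 scale (SE; n = 3 each; limma adjusted p = 0.0469). Fcrls measured 5.75, 5.29 and 5.68 in GBS, against 5.88, 6.13 and 6.15 in GB, and fell by 0.48 ± 0.13 (SE; adjusted p = 0.0487). Both calls lay at the threshold. The Mrc1 call was kept in 8 of 23 other settings and the Fcrls call in 5 of 22, and without GBS replicate 2 the adjusted p was 0.196 for Mrc1 and 0.190 for Fcrls. Leaving out any single GBS or Control array, GS replicate 1 or 2, or GB replicate 1 or 3 also took Mrc1 over the threshold (adjusted p = 0.0505 to 0.196). For Fcrls the same held of GBS replicate 3, GS replicate 1 or 2, GB replicate 2 or 3 and any single Control array (adjusted p = 0.0558 to 0.0962). With the replicate number as a block they were 0.0947 and 0.0866.

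The other genes missed the threshold in this comparison. C1qc measured 6.56, 6.70 and 6.51 in GBS, against 6.86, 7.09 and 7.04 in GB, a log2 change of -0.41 ± 0.12 (SE; limma adjusted p = 0.0501). C1qb had a log2 difference of -0.41 (adjusted p = 0.0675) and C1qa by -0.27 (adjusted p = 0.130). Csf1r had a log2 difference of -0.37 (adjusted p = 0.0529), with 6.44 to 6.80 in GB and the GBS values given above. Tmem119, Itgam and Cx3cr1 had differences of -0.33, -0.32 and -0.29 (adjusted p = 0.113 to 0.126). For P2ry12 the change was -0.03, with an interval of -0.27 to 0.20 (adjusted p = 0.796). GB replicate 2, which held the highest value for most of these genes, is 1 of the 3 arrays behind each GB mean. Without it the median change of the 10 genes was -0.23, beside -0.07 for all genes and -0.14 for the receptor genes.

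GBS against GS asks what stabilised beta-catenin adds to SmoM2. All 10 genes again had a lower mean in GBS, with a median log2 change of -0.19, beside -0.06 for all genes and -0.12 for the receptor genes. The mean was also lower for 63.0% of all genes and 89.6% of the receptor genes. Limma called 0 of the 10, where 3.52% of all genes were called, and 1 was lower at an unadjusted p under 0.05, where 7.26% of all genes were. For 3 of the 10, Csf1r, C1qb and Mrc1, the GBS arrays lay wholly below those of GS, where 12.9% of all genes did so. The gene past the unadjusted level was Mrc1, with 6.63, 6.45 and 6.06 in GS. Every GS array lay above every GBS array, and the log2 change was -0.64 ± 0.19 (SE; adjusted p = 0.0948). Without GS replicate 3 or without GB replicate 2 this difference passed the test (log2 -0.80 and -0.64, adjusted p = 0.0474 and 0.0466).

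The single alleles were set against Control to ask what each does alone. In GS, limma called 0 of the 10 genes, where 0.015% of all genes were called. The median log2 change was -0.06, beside -0.05 for all genes and -0.16 for the receptor genes. It ran from -0.14 without GS replicate 3 to -0.022 without GS replicate 1, and was -0.030 without GS replicate 2. Fcrls alone was below an unadjusted p of 0.05 (0.0268), where 2.95% of all genes were lower at that level: its GS arrays, 5.43, 5.69 and 5.68, lay wholly below the Control arrays (log2 -0.34, adjusted p = 0.663). Csf1r and C1qa also had GS arrays wholly below Control, so 3 of the 10 did, where 10.3% of all genes did. In GB, limma called 0 of the 10 genes and 0% of all genes. The median log2 change was 0.11, beside 0.01 for all genes and -0.02 for the receptor genes. Of the 10, 1 was negative, where 46.7% of all genes were. Without GB replicate 2 the median was -0.0067, with 6 of the 10 negative. Mrc1 alone was below an unadjusted p of 0.05 (0.0486), where 0.878% of all genes were higher at that level, and its GB arrays lay wholly above Control, as for 2.89% of all genes (log2 0.41 ± 0.19, SE; adjusted p = 0.99997).

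Mrc1 had the largest interaction of the 10 genes. It averaged 5.74 ± 0.25 in GBS, 6.38 ± 0.29 in GS, 6.42 ± 0.25 in GB and 6.00 ± 0.21 in Control (SD, n = 3 each). The mean was thus higher than Control with either allele alone, by 0.38 in GS and 0.41 in GB, and lower than Control with both. The difference between these differences, the step from GS to GBS less that from Control to GB, was -1.06 ± 0.27 for Mrc1 (SE; unadjusted p = 0.0020), with a limma adjusted p of 0.242. It passed the test without the 3 arrays that stood apart (-1.31, adjusted p = 0.0325) and with the receptor-gene median as a covariate (-1.196, adjusted p = 0.0249). Over all 22 other settings it ran from -1.31 to -0.91, with adjusted p up to 0.585. GS and GB, the genotypes with the higher Mrc1 means, are also those with high-Xist arrays, and the part of sex was not tested. All 10 genes had a negative interaction, with a median of -0.24, beside -0.06 for all genes and -0.10 for the receptor genes. A negative sign was also found for 61.5% of all genes and 78.7% of the receptor genes. Without the 3 arrays that stood apart the median was -0.11 with 7 of 10 negative, beside 0.032 for all genes and 0.065 for the receptor genes. Without GB replicate 2 it was -0.16 with 9 of 10 negative. Limma called 0 of the 10, where 0.231% of all genes were called, and 2 were negative at an unadjusted p under 0.05, Mrc1 and C1qc (-0.40, adjusted p = 0.638), where 3.3% of all genes were. GS and GB were compared directly as well. Limma called 0 of the 10 genes there, where 0.01% of all genes were called, and Fcrls was lower in GS at an unadjusted p of 0.00576 (log2 -0.46, adjusted p = 0.511), where 3.98% of all genes were lower at 0.05. Its GS arrays lay wholly below those of GB, as for 5.45% of all genes.

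Promoter sequence is shown for Mrc1 and Fcrls, the genes called in GBS against GB, and for C1qb and C1qc, which neighbour each other on chromosome 4. PU.1, the ETS factor that macrophages and microglia require, binds sites with a GGAA core. RefSeq (GRCm38.p6) promoters were matched for 7 of the 10 genes. The 250 bases before each start are written 5′ to 3′ on the gene's strand, with matches to GAGGAA or AGGAAGT on either strand in capitals, and the pair of motifs may overlap.
Mrc1, chr2:14229164-14229413 on the plus strand: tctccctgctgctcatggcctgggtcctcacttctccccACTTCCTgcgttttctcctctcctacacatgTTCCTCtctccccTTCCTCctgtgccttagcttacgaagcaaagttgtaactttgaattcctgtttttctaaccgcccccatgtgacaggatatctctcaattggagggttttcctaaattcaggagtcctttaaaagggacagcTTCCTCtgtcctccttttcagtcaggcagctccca
Fcrls, chr3:87263525-87263774 on the minus strand: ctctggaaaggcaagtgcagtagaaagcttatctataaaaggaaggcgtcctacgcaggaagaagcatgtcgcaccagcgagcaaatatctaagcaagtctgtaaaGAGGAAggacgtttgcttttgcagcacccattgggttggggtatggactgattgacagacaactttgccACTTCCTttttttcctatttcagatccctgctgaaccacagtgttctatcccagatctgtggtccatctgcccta
C1qb, chr4:136886201-136886450 on the minus strand: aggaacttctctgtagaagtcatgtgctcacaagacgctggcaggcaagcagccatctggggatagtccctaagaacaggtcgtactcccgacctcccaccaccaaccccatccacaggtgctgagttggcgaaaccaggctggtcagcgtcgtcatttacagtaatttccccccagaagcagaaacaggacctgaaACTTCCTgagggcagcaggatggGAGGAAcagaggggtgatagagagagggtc
C1qc, chr4:136892915-136893164 on the minus strand: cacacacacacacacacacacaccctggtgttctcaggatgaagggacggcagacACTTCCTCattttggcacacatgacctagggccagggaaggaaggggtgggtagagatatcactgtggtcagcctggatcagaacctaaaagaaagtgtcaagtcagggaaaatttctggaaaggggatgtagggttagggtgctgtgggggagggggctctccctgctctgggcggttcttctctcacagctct
AGGAAGT was found in 5 of the 7 windows (Mrc1, Fcrls, P2ry12, C1qb and C1qc), and in 7.69% of the 32851 promoter windows of the same length. GAGGAA was found in 5 of the 7 (Mrc1, Fcrls, Itgam, C1qb and C1qc), and in 23.3% of all windows. The Mrc1 window held 3 matches to GAGGAA and 1 to AGGAAGT. In the C1qc window both motifs lay over each other, 188 to 195 bases before the start. Cx3cr1 held neither within its window. A match describes letters shared with these motifs and not binding, and other ETS factors share the GGAA core.

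Other genes of the same cells were read from lists. Of 27 further microglia genes with a probe set of their own, limma called 0 in GBS against Control, where 11.6% of all genes were called, and before adjustment 1 was higher and 8 were lower at 0.05, where 15.8% and 20.6% of all genes were. Their median log2 change was -0.23. Trem2, the lipid-sensing receptor of microglia, measured 7.49, 7.30 and 7.44 in GBS, against 7.69, 7.59 and 7.72 in Control (log2 -0.26, adjusted p = 0.210). Its groups did not overlap. The GBS arrays lay wholly below Control for 18 of the 27 genes of its list. This held for 40.5% of all genes and 827 of the 1190 receptor genes. Sparc, Mef2c and Tgfbr1, the other bright genes of that list, are also made by other brain cells, and their log2 changes were 0.39, -1.16 and 0.34 (adjusted p = 0.299, 0.0792 and 0.340).

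Of 14 genes of border macrophages, 1 fell and 0 rose in GBS against Control, where 3.59% and 8.04% of all genes did. Their median was -0.24. The gene was Apoe, an apolipoprotein that astrocytes, radial glia and macrophages all make. It measured 7.73, 7.54 and 7.70 in GBS, against 8.16, 8.11 and 8.26 in Control. It fell by 0.52 ± 0.09 on the log2 scale (SE; limma adjusted p = 0.00645), in 23 of 24 other settings, quantile normalization being the exception (adjusted p = 0.0679). Against GB, Apoe fell by 0.60 (adjusted p = 0.00426) and Lyve1, a hyaluronan receptor of border macrophages and lymphatic vessels, by 0.37 (adjusted p = 0.0307), the Lyve1 value having been seen before it was named. The Lyve1 call was kept in 14 of 24 other settings and was lost without GBS replicate 1, 2 or 3, GS replicate 2, GB replicate 1 or Control replicate 1 (adjusted p = 0.0502 to 0.138).

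Of 14 genes of the phagocytic microglia that cluster in developing white matter, 2 rose and 1 fell in GBS against Control, where 8.04% and 3.59% of all genes did. Their median was -0.15, and 10 of the 14 had lower means in GBS, as did 67.0% of all genes. Cd63, a tetraspanin of late endosomes found in many cell types, measured 8.16, 9.02 and 8.58 in GBS, against 6.28, 6.79 and 6.99 in Control. It rose by 1.89 ± 0.24 on the log2 scale (SE; limma adjusted p = 0.000825), in all 24 other settings. Cd9, another widely expressed tetraspanin gene, rose by 0.67 (adjusted p = 0.0268), and Igf1, the insulin-like growth factor gene, fell by 0.40 (adjusted p = 0.0208), each in 18 of 24 other settings. The Cd9 call was lost when GBS replicate 2 or 1 of the Control arrays was left out (adjusted p = 0.061 to 0.125), and the Igf1 call when GBS replicate 1 or 3 or 1 of the Control arrays was (adjusted p = 0.057 to 0.0767).

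Of 22 complement genes outside C1q, 1 rose and 1 fell in GBS against Control, where 8.04% and 3.59% of all genes did. Their median was -0.19. Masp1, a protease of the lectin pathway, measured 8.05, 8.39 and 8.01 in GBS, against 7.41, 7.27 and 7.26 in Control. It rose by 0.84 ± 0.11 (SE; limma adjusted p = 0.000867), in all 24 other settings. Clu, a secreted inhibitor of the terminal complement complex that astrocytes make, fell by 0.46 (adjusted p = 0.0300), in 18 of 24 other settings, and the call was lost without GBS replicate 2 or 3 or Control replicate 2 or 3 (adjusted p = 0.0638 to 0.138). Of 10 ligand and receptor partners of the 10 genes, 0 rose and 1 fell, again beside 8.04% and 3.59% of all genes, with a median of -0.33. That gene, the anaphylatoxin receptor gene C5ar1, read 5.21 to 5.46 in GBS, against 5.51 to 5.81 in Control (log2 -0.36, adjusted p = 0.0468), and its call was kept in only 8 of 22 other settings (adjusted p up to 0.296), being lost without GBS replicate 1, 2 or 3, GS replicate 1 or 2, GB replicate 1 or 3, or Control replicate 2 or 3. Against GB, 2 of these 10 partners were called lower, where 2.35% of all genes were: C5ar1 (log2 -0.39, adjusted p = 0.0435) and the cytokine receptor gene Csf2ra (log2 -0.41, adjusted p = 0.0347), which was chosen after its values were seen. The Csf2ra call was kept in 14 of 24 other settings and was lost without GBS replicate 2 or 3, GB replicate 1 or Control replicate 1 or 2 (adjusted p = 0.0527 to 0.1504).

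Markers of other cells that a forebrain piece can hold were read beside them in GBS against Control. Limma called 0 of 10 monocyte and granulocyte genes (0 at an unadjusted p under 0.05), 0 of 13 lymphocyte and mast cell genes (at that level 1 was higher and 3 were lower) and 0 of 4 erythroid genes (1 higher at that level), with medians of -0.25, -0.28 and -0.23. Of all genes, 8.04% were called higher and 3.59% lower, and 15.8% and 20.6% were so at the unadjusted level. Of 17 inflammatory and interferon genes, 1 was called lower, the cytokine gene Tnf (log2 -0.51, adjusted p = 0.0427), where 3.59% of all genes were. The list median was -0.24. The Tnf call was kept in 11 of 23 other settings (adjusted p up to 0.453). It was lost without GS replicate 1 or 2 or any 1 GBS or Control array (adjusted p = 0.0561 to 0.158). The mean level over the monocyte and granulocyte list ran from 5.40 to 5.45 in GBS, against 5.60 to 5.75 in Control. These lists hold genes of cells that are sparse in newborn brain, and their medians lay between that of all genes, -0.14, and about that of the receptor genes, -0.27. Of 14 endothelial and pericyte genes 2 rose and 0 fell, where 8.04% and 3.59% of all genes did. Of the 14, 9 had lower means in GBS, as did 67.0% of all genes. The 2 called genes were the pericyte channel gene Abcc9, which rose by 0.50 (adjusted p = 0.00903), and the endothelial sialomucin gene Emcn, which rose by 0.89 (adjusted p = 0.0122). The list median was -0.13. The Emcn call was kept in 20 of 23 other settings, with log2 changes down to 0.50 and adjusted p up to 0.107. Among fits with 1 array left out, it was lost without GBS replicate 2 or Control replicate 1 (adjusted p = 0.0653 and 0.0571). Of 10 meningeal and fibroblast genes 1 rose, the matrix proteoglycan gene Dcn by 3.79 (adjusted p = 0.000318), where 8.04% of all genes did. Their list median was -0.04. Of 13 forebrain neuron genes 3 fell (Bcl11b, Gap43 and Tbr1), where 3.59% of all genes did, with a median of -0.56. Of 10 radial glia genes 5 rose (Prom1, Vim, Pax6, Slc1a3 and Sox2) and 1 fell (Fabp7), with a median of 0.35. Of all genes, 8.04% rose and 3.59% fell. The part of these shifts in the change of the 10 genes was not tested.

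**Figure D3:**
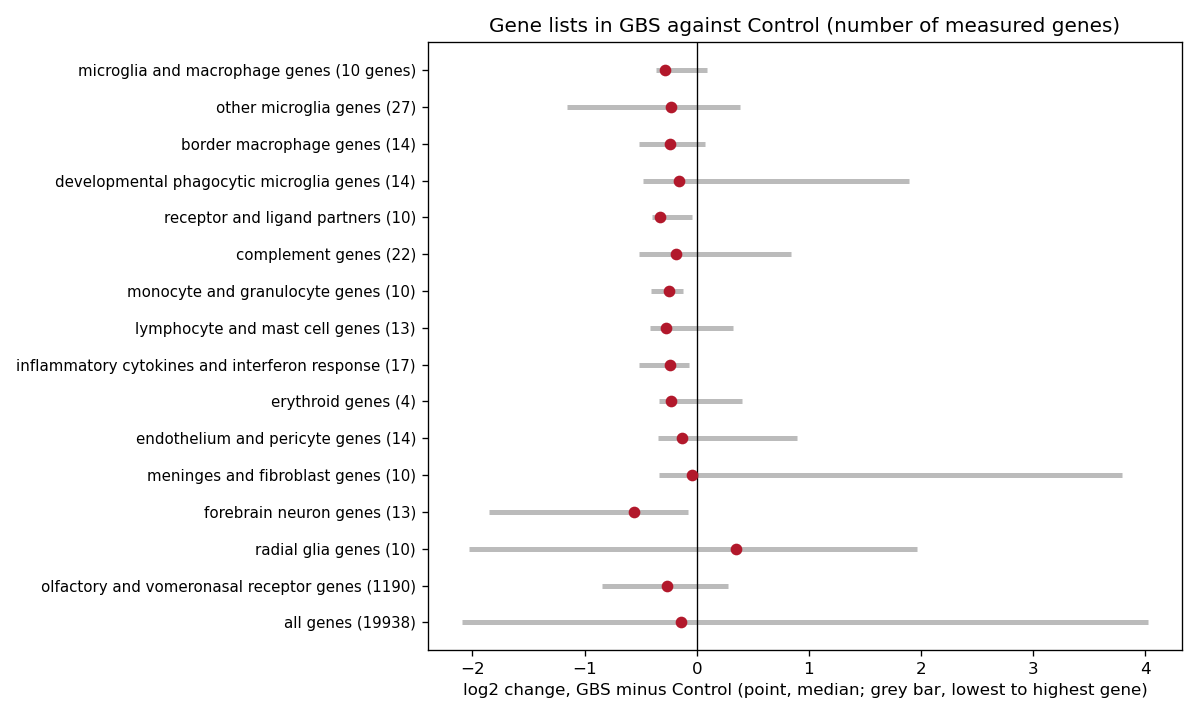
Log2 change in GBS against Control for each gene list, with the number of measured genes in brackets. Points are medians and grey bars run from the lowest to the highest gene. The microglia and macrophage genes lie at -0.28, close to the receptor genes at -0.27 and to the lists of blood cells.

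**Figure D4:**
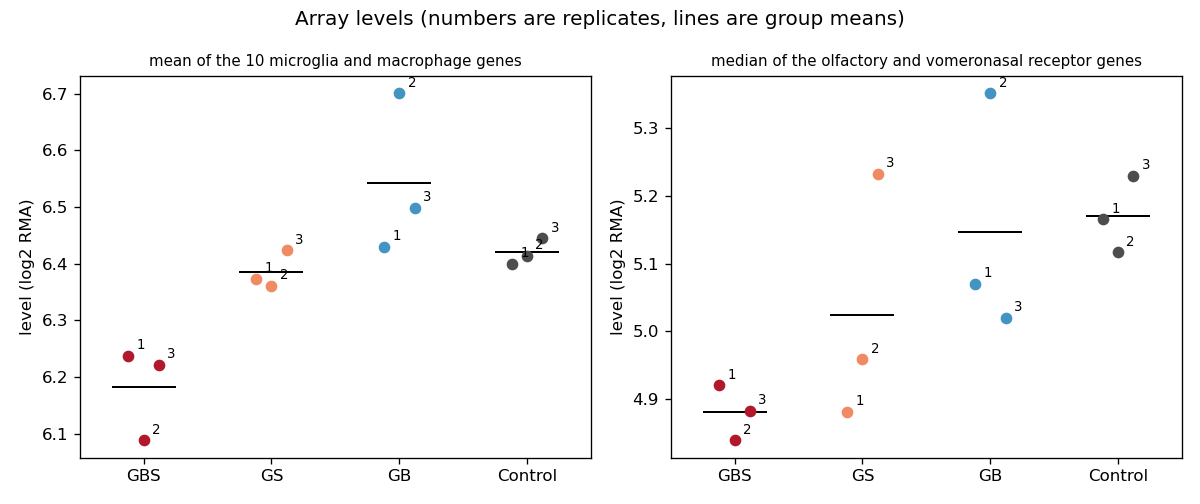
Mean level of the 10 microglia and macrophage genes (left) and median level of the olfactory and vomeronasal receptor genes (right) on each array (log2 RMA), by genotype. Numbers beside the points are replicates and lines are group means; the left panel's GBS arrays, 6.09 to 6.24, lie below all others, and GB replicate 2 is highest in both panels.

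The mean over the 10 genes was 6.09 to 6.24 in GBS, 6.36 to 6.42 in GS, 6.43 to 6.70 in GB and 6.40 to 6.44 in Control. Genes with the most similar profile over the 12 arrays were looked for among the 9052 genes outside the 10 that varied with an SD of at least 0.2. The 10 nearest were Slc38a4, Tfap2b, Peli3, Mir184, Ttc39d, Trim34a, Apoe, Stoml3, Irgm1 and Grin3b, with Pearson correlations of 0.94 to 0.97 with the members' mean profile. Apoe was the only one of them on any of the lists above. A correlation over 0.5 was found for 10 of the 13 further microglia genes with that spread, for 513 of 541 receptor genes, and for 4139 of the 9052 genes. The arrays share genotype and receptor-gene level, so these values are a description.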

How the data were processed

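RNA from 12 forebrains was measured on 1 Affymetrix array each. The deposited values are log2 expression per probe set, which the submitters' processing notes give as RMA output of Expression Console, and the log2 scale was read from their range of 2.82 to 13.83. The sources used here give no version or build. Of 35556 probe sets, a platform annotation gave 21789 a single symbol, and 21698 of these were updated through RefSeq gene identifiers. The probe set with the highest mean was kept for each of 19938 genes, with no filter on dim genes. All arrays entered a limma 3.58.1 fit with a mean for each genotype, in R 4.3.3 (lmFit and eBayes, 8 residual and 3.3 prior degrees of freedom). The fit was also run on simulated data with known changes and independent noise, so deviations shared between arrays were not tested there. The 7 contrasts were adjusted separately (Benjamini-Hochberg). Dim probe sets read background and compress differences, and the number of arrays limits precision. The members, gene lists and settings were chosen with earlier results of these data known. All 10 members are named. Of each list, called genes in comparisons with Control are named (at most 6), otherwise the 4 brightest, and others are said to be chosen after their values were seen. The alternatives were 2 filters on dim genes, other probe set rules, quantile or median scaling, other variance models, array weights, fewer groups or arrays, a replicate block and a receptor-gene covariate. Replicates sharing a number had correlations of deviations between -0.81 and 0.71, so numbers were not taken as pairs.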

Additional observations from a re-analysis of the deposited data

How the results depend on the processing

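Over up to 24 other settings, 0 of the 10 genes were called higher, except Mrc1 in GS against Control with array weights (1 gene). In that fit 3337 of the 19938 genes were called higher. The count called lower in GBS against Control, 0, became 4 with array weights (estimated gene by gene), 5 with only the groups compared, 3 without the 3 arrays that stood apart, and 0 to 5 when 1 array was left out, the 5 without GB replicate 2. The share of all genes called lower there ran from 0.386% to 27.8%. It was 27.8% with array weights, 24.6% with only the groups compared and 19.6% without the 3 arrays. In GBS against GB the count called lower, 2, is given with the share of tested genes called lower in brackets. It became 3 of 7 tested with the filter at the 40th percentile (3.26%) and 1 of 2 tested at the 60th (3.53%). With each gene's probe sets averaged it was 3 (2.54%). It was 0 with every probe set tested (1.51%), quantile normalization (1.3%) and arrays centred on their medians (1.62%). Limma's trend and robust settings gave 4 (3.22%), and array weights 4 (8.83%). It was 0 with only the groups compared (0%) and with the replicate block (0.346%). The receptor-gene covariate gave 1 (2.58%), and leaving out 1 array gave 0 to 3 (0.125% to 8.07%). The replicate block is a fit on numbers shared by label only, and 1 of 12 arrays was most like an array of its own number. In GBS against GS the count called lower, 0, became 1 with array weights (7.13%), 1 without the 3 arrays (6.49%) and 1 with the receptor-gene covariate (6.57%). It was 0 to 1 when 1 array was left out (0.196% to 3.07%). In GS against Control the count called lower became 3 with array weights, where 20.4% of all genes were called lower. In the interaction it became 1 with array weights, 1 without the 3 arrays and 1 with the covariate. There 2.39%, 1.27% and 0.522% of all genes were called lower. Of the 10 genes, 7 passed the 40th percentile filter and 2 the 60th.

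With the receptor-gene covariate the change in GBS against Control turned to -0.084 for P2ry12, 0.18 for Tmem119, 0.024 for Itgam, 0.057 for C1qa and 0.14 for Trem2, with the cause not tested. In GBS against GB, P2ry12 turned to 0.13 with quantile normalization and 0.033 with centred arrays, and ran from -0.073 to 0.021 when 1 array was left out, and the cause was not tested. Members' median changes in GBS against Control ran from -0.33 to -0.05. Dim probe sets near the receptor-gene level limit what can be seen for Itgam, P2ry12 and Fcrls.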
